A study of Rattus norvegicus with 8 samples.

Results

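Fish oil colitis was set against healthy colon in 2 arrays a group, which are 4 of the 8 arrays of the study. The members were chosen by the titles of the samples, and all 30367 non-control probes of the array were taken up, from which 18165 genes entered the test. The rats were female Wistar rats aged 14 weeks. The healthy group (6 rats) ate a diet enriched with sunflower oil for 8 weeks and received no dextran sulfate sodium (DSS). The fish oil group (10 rats) ate a diet enriched with fish oil for 8 weeks and received 5% DSS for 7 days, after which the colon was taken. The n-6 colitis group (10 rats, sunflower oil) and the ALA colitis group (10 rats, α-linolenic acid) received the same DSS and serve here for comparison. Both the oil and DSS differ between fish oil colitis and healthy colon, so their parts cannot be told apart in that contrast. Fish oil colitis and n-6 colitis were treated alike apart from the oil, but their rats and the positions of their arrays differ too.

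RNA of 6 rats was pooled for each group's arrays. The 2 healthy arrays therefore hold RNA of the same 6 rats, and for colitis the sources used here leave unsaid whether both arrays of a group came from 1 pool. All p-values below measure the spread between arrays, which may be technical. In whole-tissue RNA, fewer cells of a type and less RNA per cell cannot be told apart. An exact permutation test of 2 against 2 arrays cannot give a two-sided p below 0.333, so no such test was used for single genes.

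DSS is a sulfated polysaccharide that, given in drinking water, injures the epithelium of the colon and brings in neutrophils and monocytes. Fish oil carries eicosapentaenoic and docosahexaenoic acid, long-chain n-3 fatty acids that enter cell membranes, compete with arachidonic acid as substrates for eicosanoids, bind peroxisome proliferator-activated receptors (PPAR) and are known to restrain the transcription factors of lipid synthesis. The healthy colon renews its epithelium from Wnt-driven crypt stem cells, secretes mucus from goblet cells and absorbs salt, water and short-chain fatty acids through colonocytes. The comparison asks how far the colon of rats with DSS colitis stood from healthy colon when the diet held fish oil.

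A level is log2 of the array's processed signal minus the 75th percentile of that array, so 0 is the level below which 75% of the probes lie and each step of 1 is a doubling. Colon markers were well above background on all 4 arrays, among them the intestinal galectin Lgals4 (6.65 and 6.44 in healthy, 8.03 and 6.87 in fish oil colitis). The first fish oil array was the dimmest of the 8: its 75th percentile lay at 175.5 intensity units, against 390.5 to 688.7 on the others, and 54.01% of its probes were well above background, against 59.76% to 70.07%. All arrays were on 1 slide, with the healthy arrays in row 1, columns 3 and 4, and the fish oil arrays in row 2, columns 1 and 2, so position and group cannot be told apart. The n-6 arrays were in row 2, columns 3 and 4, so the same holds for fish oil against n-6 colitis. Correlations over genes between arrays of the 2 groups were 0.953 to 0.9759, and those within the groups were 0.9687 (healthy) and 0.9712 (fish oil).

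No gene passed the test between fish oil colitis and healthy colon. Limma called 0 of 18165 genes at a Benjamini-Hochberg adjusted p under 0.05 (0%), with a smallest adjusted p of 0.106, and quantile normalization in place of the scaling gave 1 call, a transcript without a symbol. With the scaling used here, the fit called 7 genes in n-6 colitis against healthy (0.0385%) and 0 in ALA colitis against healthy. At an unadjusted p under 0.05 there were 712 genes (3.92%), 349 higher (1.92%) and 363 lower (2%) in fish oil colitis, where an even spread of p-values would put 908. The same count was 2655 (14.6%) for n-6 colitis and 1189 (6.55%) for ALA colitis, and all 3 comparisons share the healthy arrays. The median SD between the 2 arrays of a group was 0.243 in healthy, 0.278 in fish oil, 0.368 in n-6 and 0.337 in ALA colitis, and the 4 groups share 1 estimate of the spread. With the spread taken from healthy and fish oil arrays alone, 1177 genes had an unadjusted p under 0.05 and still 0 passed after adjustment. Without the first fish oil array the unadjusted count was 359, and without the second it was 1191.

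**Figure D1:**
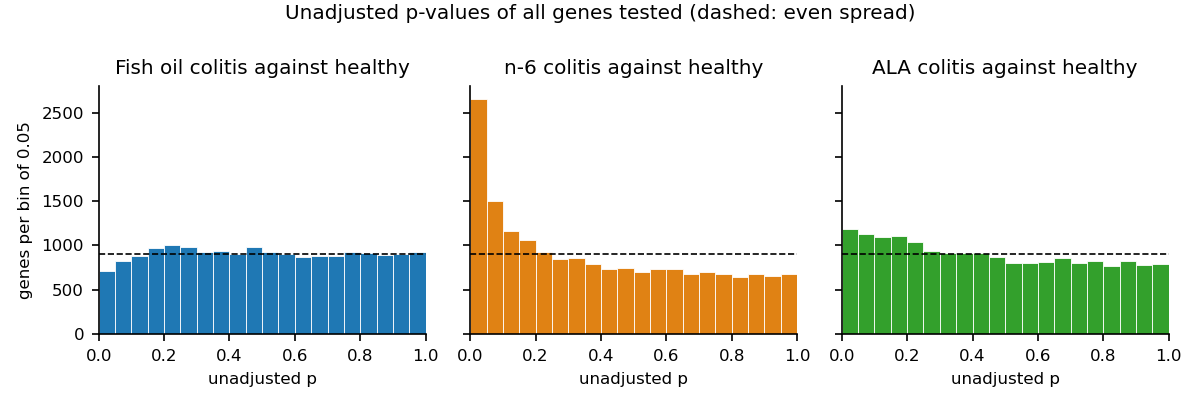
Number of genes (y axis, of 18165) in bins of the unadjusted limma p-value (x axis) for each colitis group against the 2 healthy arrays. The dashed line marks the 908 genes per bin of an even spread. The first bin holds 712 genes for fish oil colitis, 2655 for n-6 colitis and 1189 for ALA colitis.

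By size, 1482 genes differed by at least 1 on the log2 scale between fish oil colitis and healthy colon, against 3298 for n-6 colitis and 2310 for ALA colitis. The arrays of fish oil colitis and healthy did not overlap for 38.5% of genes, 18.9% higher and 19.6% lower. With 2 against 2 arrays, chance alone would separate a share of 0.333 of the genes, both directions together. The 38.5% is little above that share, so non-overlap of a single gene is weak evidence of a difference. The median standard error of a difference was 0.42. Values below are measured differences, and none of those from healthy colon passed the adjusted test. The adjusted limma p was 0.242 for Cyp1a1, 0.106 for Slurp2 and at least 0.992 for every other gene with a symbol named here. The counts of list members below are to be read against 1.92% higher and 2% lower at an unadjusted p under 0.05, and 18.9% and 19.6% without overlap. A probe entered when both arrays of any 1 group had it well above background. Some genes below that limit in fish oil colitis entered through the healthy arrays alone, so their p-values and counts are not free of that choice.

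Slurp2, which encodes a small secreted protein of the Ly6 family best known from squamous epithelium and skin, had the smallest p. Its probe was not well above background on either healthy array (-7.48 and -7.04), was well above it on both fish oil arrays (-2.09 and -2.61), and was not well above background on the n-6 (-7.08 and -7.46) or ALA arrays (-5.56 and -6.46). The 2 fish oil arrays stood apart from the other 6. Taken against the lowest signal well above background, the level was at least 19.8-fold higher than in healthy colon; here and below such a bound sets the mean of the bright group against, on each array of the dim group, the higher of that lowest signal and the probe's own. The same bound against n-6 colitis was 19.24-fold. All such bounds rest on the scaling used here and do not count the spread between arrays. Among the alternatives listed at the end, the smallest log2 difference of Slurp2 from healthy was 1.275. The adjusted limma p was 0.106 against healthy and 0.0208 against n-6 colitis, but the probe entered the test only because both fish oil arrays were high, so neither p is free of that choice; with no filter on dim probes they were 0.292 and 0.0594. Cyp1a1, the cytochrome induced through the aryl hydrocarbon receptor, lay on the other side: -2.48 and -2.67 in healthy, and not well above background in fish oil (-6.26 and -6.07), n-6 (-7.58 and -6.93) or ALA colitis (-5.92 and -6.75). All 6 colitis arrays were below both healthy arrays, and fish oil colitis was at least 8.62-fold lower than healthy (limma adjusted p = 0.242). The smallest log2 difference of Cyp1a1 among the alternatives was -1.026. In n-6 colitis against the same healthy arrays the limma adjusted p was 0.0252. The Cyp1a1 probe entered the test only because both healthy arrays were high, so neither of its p-values is free of that choice. The 2 probes are the oligonucleotides behind these values, and both RNAs were named by their RefSeq accession in the array's annotation. The first 30 of the 60 bases of each follow, in lower case, with no part marked; the Slurp2 probe lies at chr7:112857543-112857602 (minus strand) and the Cyp1a1 probe at chr8:61468133-61468192 (plus strand) of rn4, and no gene annotation of that build was used here.
Slurp2 probe: agatcctatctgtgggtcaccctcagtatc
Cyp1a1 probe: caatagatttagataattcgcttagtgtaa

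Other genes crossed the limit of detection between the groups. Not well above background in healthy and well above it on both fish oil arrays were Magea14, a member of the melanoma antigen family (at least 11.51-fold higher), Slc25a54, of the mitochondrial carrier family (at least 6.54-fold), Hpn, the membrane serine protease hepsin (at least 6.20-fold), Vom1r98, a vomeronasal receptor (at least 5.98-fold), and Hmmr, the hyaluronan-mediated motility receptor (at least 4.39-fold). Hmmr and Magea14 were not well above background on any n-6 or ALA array, whereas Vom1r98 was well above it on all 4 of those arrays. Hmmr and Magea14 thus entered the test only through the fish oil arrays, and a high signal there was the condition of entry. In the other direction, RatNP-3b, a neutrophil defensin gene, was at least 19.0-fold lower, E230025N22Rikl at least 13.5-fold, the protease inhibitor Pzp at least 11.8-fold, the SUMO protease Senp1 at least 7.28-fold and the sialyltransferase St3gal1 at least 5.88-fold. RatNP-3b read -3.44 and 1.07 on the healthy arrays, so its bound rests mainly on the second of them. The smallest log2 differences among the alternatives were 0.757 (Magea14), 0.636 (Slc25a54), 0.485 (Hpn), 0.608 (Vom1r98) and 0.789 (Hmmr). For the lower genes they were -1.993 (RatNP-3b), -1.836 (E230025N22Rikl), -1.275 (Pzp), -0.941 (Senp1) and -0.678 (St3gal1).

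Among genes measured on all 4 arrays, the smallest p-values on the higher side belonged to Cngb3, Morn1, Slc16a3, Hmox1, Igfbp4, Igfbp5, Lpal2, St3gal4, Ifitm7, Clec4a1, Ifitm3 and Wfdc18. Slc16a3 encodes the lactate exporter MCT4. It read 1.57 and 0.70 in healthy and 4.66 and 4.25 in fish oil colitis, a difference of 3.31 ± 0.57 (SE). The n-6 arrays were at 3.23 and 4.73 and the ALA arrays at 3.69 and 3.07, so all colitis arrays lay above both healthy arrays. Hmox1, the inducible haem oxygenase, read -2.30 and -1.70 in healthy and 0.16 and 0.13 in fish oil colitis (2.15 ± 0.43). Its n-6 values were -0.90 and -0.12 and its ALA values 0.63 and -0.14; fish oil and n-6 arrays did not overlap, with an interval of -0.35 to 1.67 for fish oil minus n-6. Here and below such intervals are 95% intervals of the limma fit. The insulin-like growth factor binding proteins Igfbp4 and Igfbp5 were higher than healthy by 2.001 ± 0.40 and 2.47 ± 0.50. St3gal4, a sialyltransferase of the Golgi, was higher by 2.12 and the secreted whey acidic protein domain gene Wfdc18 by 3.63, the latter from -5.20 and -4.89 to -0.26 and -2.58. For these 4 genes n-6 colitis lay 2.99, 2.58, 2.53 and 4.36 above the same healthy arrays, in that order.

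Cngb3, Morn1 and Lpal2 lay apart from n-6 colitis as well as from healthy. Cngb3, known as a channel subunit of cone photoreceptors, was dim, at -4.21 and -4.07 in healthy and -2.55 and -2.50 in fish oil colitis, against -3.71 and -3.63 in n-6 colitis. Morn1, which encodes a protein of membrane occupation repeats, read -4.97 and -4.52 in healthy, -2.83 and -2.08 in fish oil and -5.58 and -5.11 in n-6 colitis. Both fish oil arrays lay above all 4 others for each of the pair, by 1.15 and 2.89 over n-6, with adjusted limma p-values of 0.39 and 0.224. Lpal2, named in the annotation as lipoprotein(a) like, was 1.61 ± 0.34 above healthy and at least 20.1-fold above n-6 colitis (limma adjusted p = 0.0139, and 0.0561 with no filter on dim probes). Its levels were -3.49 and -3.92 in healthy, -2.21 and -1.99 in fish oil and -2.35 and -2.25 in ALA colitis, and -6.59 and -7.21 on the n-6 arrays, where it was not well above background.

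On the lower side the smallest p-values among measured genes belonged to Cd320, Cd52, Slc12a2, Ak5, Usp18, Cxcl9, Rassf6, Ascl2, Emid1, Angptl4, Xcl1 and Klhdc9. Cd320, the receptor for transcobalamin-bound vitamin B12, read 1.36 and 1.101 in healthy and -1.05 and -0.13 in fish oil colitis (-1.82 ± 0.37). Slc12a2, the basolateral sodium-potassium-chloride cotransporter that loads crypt cells with chloride, read 0.74 and 0.81 in healthy, -1.25 and -0.47 in fish oil and -0.78 and -0.88 in n-6 colitis. For both genes the 4 fish oil and n-6 arrays lay below the healthy arrays, and fish oil minus n-6 had intervals of -0.64 to 1.11 and -0.83 to 0.77. Rassf6, of the Ras association domain family, was -1.50 from healthy in fish oil and -2.58 in n-6 colitis. Emid1 and Klhdc9 were lower than healthy by values of -1.47 and -1.17 in fish oil colitis.

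Cd52, Ak5 and Angptl4 lay lower on both fish oil arrays than on the arrays of every other group. Cd52, a surface glycoprotein of lymphocytes, read -3.31 and -4.22 in fish oil colitis, -1.84 and -2.10 in healthy, -1.42 and -1.43 in n-6 and -1.86 and -2.003 in ALA colitis. The 2 fish oil arrays were the lowest of the 8, and the difference from n-6 was -2.34 (limma adjusted p = 0.334). The adenylate kinase Ak5 read -3.85 and -3.83 in fish oil, -2.46 and -2.44 in healthy and -2.37 and -2.34 in n-6 colitis. Angptl4, an inhibitor of lipoprotein lipase and a PPAR target, was at -1.45 and -1.26 in fish oil, -0.31 and 1.104 in healthy and 2.15 and 1.83 in n-6 colitis. It thus lay on opposite sides of healthy in the 2 diets, -1.75 ± 0.47 in fish oil and 1.59 in n-6 colitis, with -3.34 between them (limma adjusted p = 0.267).

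**Figure D2:**
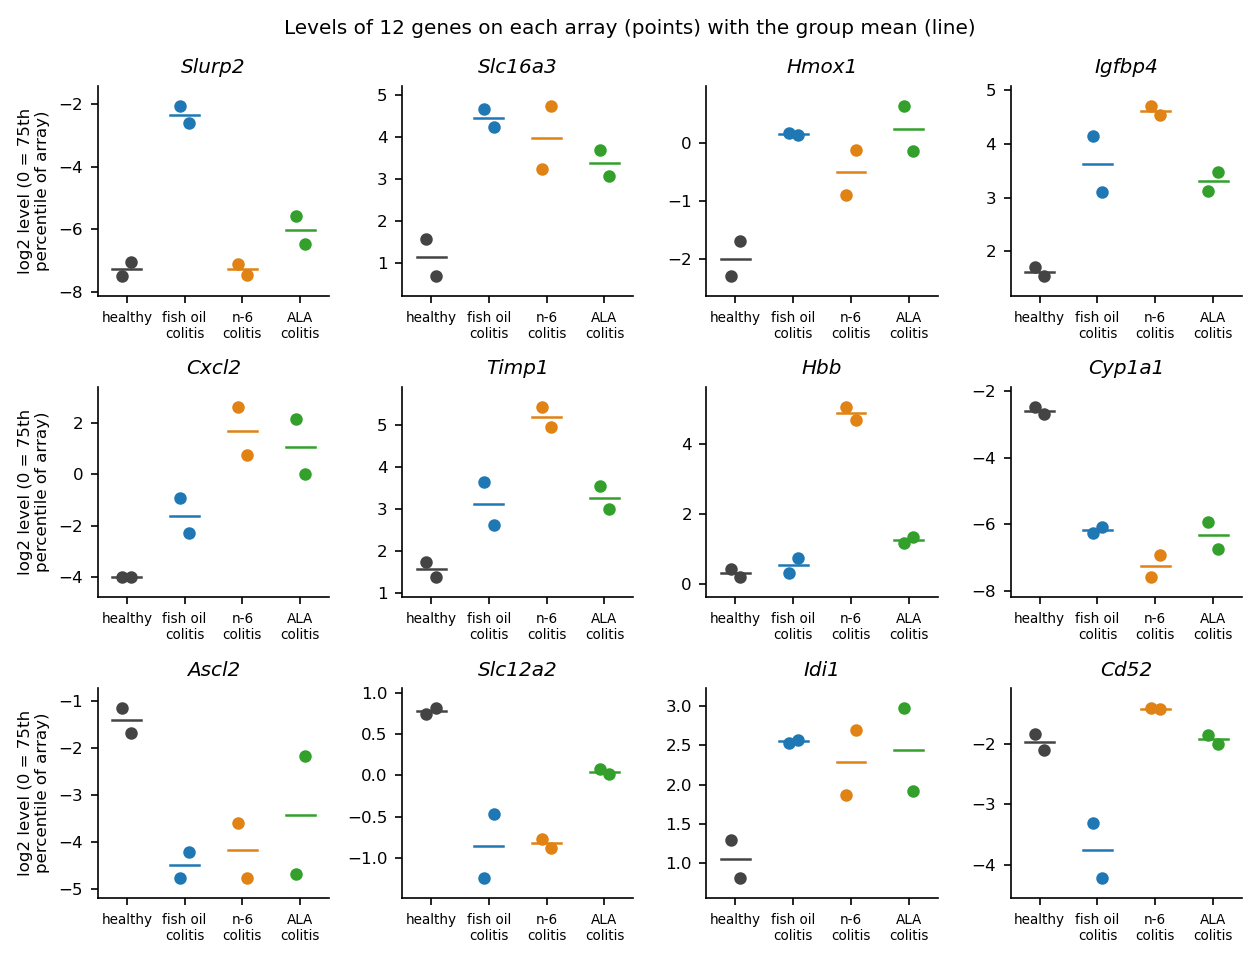
Level of 12 genes on each array (y axis, log2 signal with 0 at the 75th percentile of the array) by group (x axis), 2 points a group with their mean as a line; each panel has its own y range. Slurp2 stands out on the 2 fish oil arrays, Cyp1a1 is low on all 6 colitis arrays, and Hbb lies near healthy in fish oil colitis and above 4.7 in n-6 colitis. Slurp2 outside fish oil and Cyp1a1 in colitis were not well above background.

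The crypt stem cell and Wnt target list lay low in fish oil colitis. Of 15 genes tested (of 18 on the array), 6 were lower at an unadjusted p under 0.05 and 0 higher, 10 lay below healthy and 3 above without overlap, and the median difference was -0.78 (all genes 0.02). Ascl2, the transcription factor that sets stem cell identity in crypts, read -1.17 and -1.68 in healthy and -4.76 and -4.21 in fish oil colitis, a difference of -3.06 ± 0.81. Axin2, the feedback inhibitor of Wnt signalling, read -2.56 and -3.76 in healthy against -6.34 and -5.02 in fish oil colitis, and was well above background on 1 of the 2 fish oil arrays and on neither n-6 array. The ephrin receptors Ephb2 (-1.95) and Ephb3 (-1.67), the Wnt receptor ligase Rnf43 (not well above background in fish oil colitis, at least 2.02-fold lower) and Myc (-1.08) completed the 6. Rnf43 entered the test only through the healthy arrays, so its place among the 6 is not free of that choice. For Ascl2, Ephb2 and Ephb3, n-6 colitis was -2.76, -1.34 and -1.63 from the same healthy arrays. On the n-6 arrays neither Axin2 nor Rnf43 was well above background, and they were at least 9.32-fold and 3.35-fold lower than healthy there. Fish oil minus n-6 was -0.30 for Ascl2 (interval -2.22 to 1.61). Myc read 0.52 and 0.43 in healthy, -0.31 and -0.91 in fish oil and 1.46 and 0.80 in n-6 colitis, -1.74 between the diets (limma adjusted p = 0.39). Lgr5 and Olfm4, defining markers of crypt stem cells, did not pass the filter on dim probes. Leaving out in turn healthy replicate 1, healthy replicate 2, fish oil replicate 1 and fish oil replicate 2 gave a count of 3 lower genes in each case.

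Genes of the cell cycle and DNA replication lay low on both fish oil arrays. Of 29 genes tested (of 31 on the array), 27 lay below both healthy arrays without overlap and 0 above, with a median of -0.998 and a range from -2.65 to -0.11. Only Aurkb, the chromosomal passenger kinase, and Foxm1, the transcription factor of mitotic genes, had an unadjusted p under 0.05. Aurkb read -4.53 and -4.13 in healthy and was not well above background in fish oil colitis (-5.67 and -6.05). Foxm1 read -1.18 and -1.70 in healthy against -2.62 and -2.25 in fish oil colitis, but its second probe differed by -0.30 ± 0.68. Mki67, the proliferation antigen, read 1.31 and 1.21 in healthy, -0.18 and 0.28 in fish oil, 2.81 and 0.30 in n-6 and 1.50 and 2.55 in ALA colitis. The mitotic kinase Cdk1 read 0.50 and 0.39 in healthy, -0.64 and -0.84 in fish oil, 1.98 and -0.86 in n-6 and 0.91 and 1.48 in ALA colitis. The second n-6 array sat with the fish oil arrays and the first sat above healthy: relative to the healthy mean the median of the list was -0.91 and -0.96 on the fish oil arrays, 1.54 and -1.01 on the n-6 arrays and 0.47 and 1.31 on the ALA arrays. Fish oil and n-6 differed at an unadjusted p under 0.05 for Aurkb, lower in fish oil, and the cyclin Ccnd1, higher (2.12), 1 of 29 in each direction where all genes gave 4.44% lower and 8.04% higher. With the spread of healthy and fish oil arrays alone, 15 of the 29 were lower at an unadjusted p under 0.05; leaving out any 1 of the 4 arrays left 0.

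The promoters of Cdk1 and Ccnb2, 250 bases before the RefSeq start in GRCr8, are shown because the mitotic genes lay low together and mitotic promoters are known for CCAAT boxes and for TTTGAA, the core of the cell cycle homology region. Capitals mark CCAAT and the motif TTTGAA, each on either strand. The Cdk1 stretch lies at chr20:19265043-19265292 (plus strand) and holds 3 matches of CCAAT and 2 of TTTGAA, and the Ccnb2 stretch at chr8:79981659-79981908 (minus strand) holds 3 and 2. CCAAT was found in 15 of the 21 cell cycle promoters that could be matched (71.4%) and in 34.0% of all 33469 promoters of that length, and TTTGAA in 8 of 21 (38.1%) and 16.2%. The marked matches do not overlap, and a match describes the letters only.
Cdk1 promoter: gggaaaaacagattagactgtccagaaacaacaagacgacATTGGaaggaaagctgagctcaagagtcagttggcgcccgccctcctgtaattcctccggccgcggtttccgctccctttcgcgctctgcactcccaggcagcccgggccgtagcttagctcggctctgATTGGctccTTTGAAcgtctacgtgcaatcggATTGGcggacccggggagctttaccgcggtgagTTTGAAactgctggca
Ccnb2 promoter: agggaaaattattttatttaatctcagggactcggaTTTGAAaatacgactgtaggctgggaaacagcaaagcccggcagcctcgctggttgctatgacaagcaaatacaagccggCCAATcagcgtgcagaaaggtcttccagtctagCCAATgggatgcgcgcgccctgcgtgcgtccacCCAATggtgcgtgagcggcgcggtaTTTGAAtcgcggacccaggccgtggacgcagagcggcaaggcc

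Cholesterol synthesis lay on the higher side. Of 34 genes of cholesterol and fatty acid synthesis tested (of 38 on the array), 10 were higher at an unadjusted p under 0.05 and 0 lower, 18 lay above healthy and 3 below without overlap, and the median was 0.48. Among the 10 were Idi1, Hmgcs1, Cyp51, Insig1, Mvd, Fdps, Lss, Sqle and Scd2. Idi1, the isopentenyl diphosphate isomerase, read 1.30 and 0.81 in healthy and 2.53 and 2.56 in fish oil colitis (1.50 ± 0.46), and Hmgcs1, the cytosolic HMG-CoA synthase, 4.81 and 4.04 in healthy against 5.72 and 5.96 in fish oil colitis (1.42 ± 0.52). Cyp51 and Mvd, which act later and earlier in the same route, were higher by 1.39 ± 0.43 and 1.32 ± 0.41, and Insig1, the sterol-responsive retention protein of the endoplasmic reticulum, by 1.35 ± 0.44. On the fatty acid side the desaturase Scd2 was 0.90 ± 0.37.

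The same genes lay above healthy in the other colitis groups to various extents. Idi1, Hmgcs1, Cyp51, Mvd and Insig1 were 1.23, 0.66, 0.79, 0.72 and 0.93 from healthy in n-6 colitis and 1.39, 0.78, 0.88, 0.89 and 0.92 in ALA colitis, against the same healthy arrays. Leaving out in turn healthy replicate 1, healthy replicate 2, fish oil replicate 1 and fish oil replicate 2 gave counts of 7, 2, 2 and 3 in place of 10. The promoters of Hmgcs1 and Insig1 are printed as members of the group, with CCAAT on either strand in capitals; they lie at chr2:53382054-53382303 (plus strand) and chr4:8057770-8058019 (minus strand) of GRCr8. Of 25 promoters of the list that could be matched, 16 hold CCAAT (64.0%), and 0 hold TCACNCCAC, the core of a sterol response element, which 1.0% of all promoters hold.
Hmgcs1 promoter: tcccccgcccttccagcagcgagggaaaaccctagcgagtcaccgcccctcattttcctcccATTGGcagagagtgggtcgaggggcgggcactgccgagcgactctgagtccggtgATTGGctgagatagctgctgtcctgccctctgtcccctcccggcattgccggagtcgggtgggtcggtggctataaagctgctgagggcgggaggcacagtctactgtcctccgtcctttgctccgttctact
Insig1 promoter: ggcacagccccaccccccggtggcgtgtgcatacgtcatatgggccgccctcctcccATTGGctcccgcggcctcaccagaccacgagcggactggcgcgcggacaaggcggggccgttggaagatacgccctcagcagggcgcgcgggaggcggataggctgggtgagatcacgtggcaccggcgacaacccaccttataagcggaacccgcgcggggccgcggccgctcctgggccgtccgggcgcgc

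**Figure D3:**
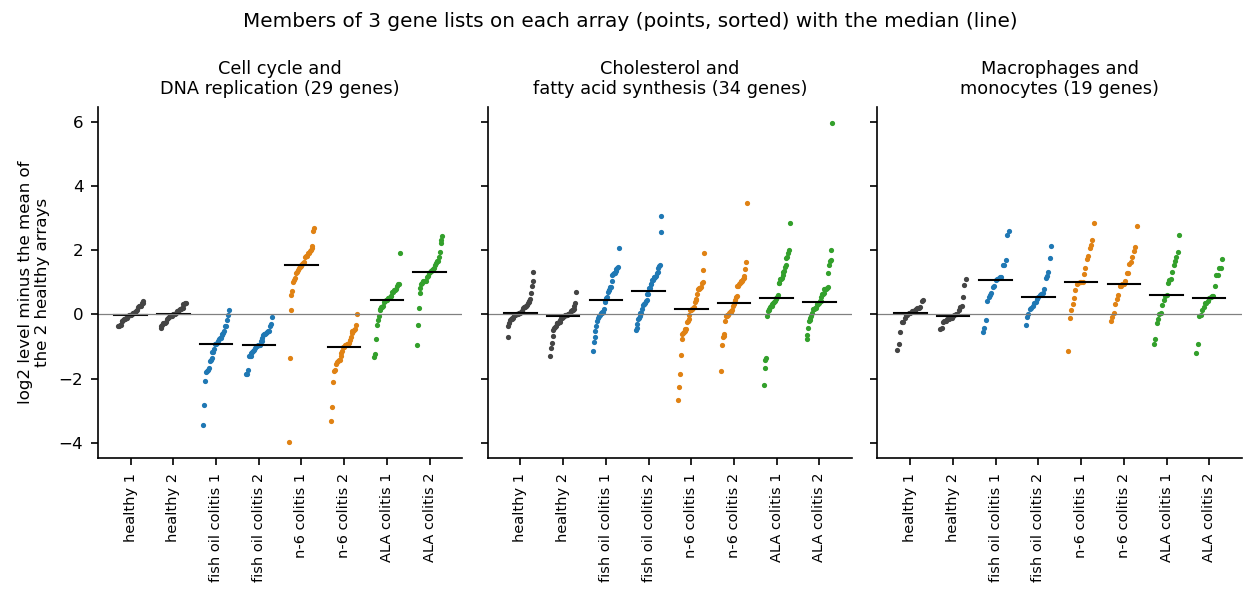
Level of each tested member of 3 gene lists on each array, minus its mean over the 2 healthy arrays (y axis, log2), with members sorted within an array and the median as a line. The cell cycle list sits at -0.91 and -0.96 on the fish oil arrays and at 1.54 and -1.01 on the n-6 arrays, while the macrophage list lies above 0 on all 6 colitis arrays.

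Fatty acid oxidation genes had a small median difference from healthy, with a few genes far below it. Of 41 genes tested, 4 were lower at an unadjusted p under 0.05 and 0 higher, and the median was -0.19, against -0.97 in n-6 and -0.63 in ALA colitis. Among the 4, Ppara, the receptor that drives these genes, was not well above background in fish oil colitis (at least 2.53-fold lower than healthy), and the fatty acid importer Slc27a2 was -2.05 from healthy; Angptl4 is described above. Pck1, the cytosolic carboxykinase, was -1.59 ± 0.54 from healthy in fish oil and -3.91 in n-6 colitis, a difference between diets of 2.32 (limma adjusted p = 0.39). Of the 41 genes, 10 were higher and 1 lower in fish oil than in n-6 colitis at an unadjusted p under 0.05, where 12.5% of all genes passed that limit, 8.04% higher and 4.44% lower. With each array centred on its median the split of all genes for that contrast turned from 1460 higher and 807 lower to 885 and 1350.

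Xenobiotic and eicosanoid genes held a few members below healthy. Besides Cyp1a1, the aryl hydrocarbon receptor repressor Ahrr read 0.95 and 0.93 in healthy and -1.47 and -0.33 in fish oil colitis (-1.84 ± 0.53), and the monooxygenase Fmo5 was -1.15 from healthy, making 3 of 23 xenobiotic genes lower at an unadjusted p under 0.05 and 0 higher (1 lower without fish oil replicate 1). The carboxylesterase Ces1e read -1.56 and -1.27 in healthy and -4.58 and -3.82 in fish oil colitis, where it was well above background on 1 array, and on the n-6 arrays it was below that limit (-7.36 and -6.34). Of 30 eicosanoid genes tested, 3 were lower and 1 higher (1 lower without either healthy array; 0 higher without healthy replicate 2 or fish oil replicate 2). The arachidonic acid epoxygenase Cyp2j4 was -0.97 ± 0.32, the prostaglandin E synthase Ptges2 -0.87 ± 0.32, and the platelet-type lipoxygenase Alox12 was not well above background in fish oil colitis (at least 1.39-fold lower). Alox5ap, the activating protein of 5-lipoxygenase, was 0.87 ± 0.30. For Cyp2j4 and Ptges2 the n-6 arrays lay lower still, at -1.80 and -1.73 from healthy, with 0.83 and 0.86 for fish oil minus n-6 (limma adjusted p-values of 0.39 and 0.39).

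Glycolysis and hypoxia genes lay slightly above healthy. Of 26 tested, 17 were above without overlap and 1 below, with a median of 0.46, and P4ha1, the collagen prolyl hydroxylase, alone had an unadjusted p under 0.05 (0.72 ± 0.29). With the spread of healthy and fish oil arrays alone that count was 10, and without healthy replicate 2 or either fish oil array it was 0. The 32 genes of the mitochondrial respiratory chain had a median of -0.01, with 5 above and 7 below without overlap and 0 at an unadjusted p under 0.05. Quantile normalization put 29 of them below healthy and 3 above, with a median of -0.24, and after normexp correction the median was -0.23 and 4 were lower at that limit. In the antioxidant list 3 of 31 genes were higher, namely Hmox1, the metallothionein Mt2A (2.90 and 0.68 in healthy and 4.91 and 4.87 in fish oil colitis) and the epithelial glutathione peroxidase Gpx2 (1.86 ± 0.77). Quantile normalization moved that count to 1 higher and 1 lower, and leaving out healthy replicate 2 or fish oil replicate 1 left 1 higher.

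No absorptive colonocyte gene had an unadjusted p under 0.05 against healthy in fish oil colitis. Of 28 tested, 20 overlapped, and the median was 0.13 (-0.13 after quantile normalization), beside -1.14 in n-6 and -0.51 in ALA colitis. Lypd8, the secreted protein that keeps flagellated bacteria from the epithelium, read 8.29 and 7.66 in healthy and 9.61 and 8.23 in fish oil colitis. Fish oil exceeded n-6 colitis at an unadjusted p under 0.05 for 4 of the 28 and was lower for 0, where all genes gave 8.04% higher and 4.44% lower, a split that turned with median centring as said above: the carbonic anhydrase Car2 (2.42), the cortisol-inactivating Hsd11b2 (2.57), the butyrate importer Slc16a1 (1.47) and the sodium-proton exchanger Slc9a3 (2.55). The first n-6 array lay far below the second, with list medians of -1.71 and 0.03 relative to healthy, against 0.23 and 0.15 on the fish oil arrays. In ion and water transport 2 of 23 genes were lower and 0 higher, Slc12a2 and the potassium channel subunit Kcne3 (-1.82 ± 0.63, and -3.38 in n-6 colitis). Without fish oil replicate 1 that count was 1, and without fish oil replicate 2 it was 5. Of 25 junction genes 1 was lower, the claudin Cldn8 (-3.72 and -2.70 in healthy, -5.94 and -5.14 in fish oil and -5.44 and -7.29 in n-6 colitis), and the count was 0 without healthy replicate 2 or fish oil replicate 1.

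Goblet cell genes included 4 higher and 0 lower at an unadjusted p under 0.05 among 20 tested (of 22 on the array), with a median of 0.54. Retnlb, a resistin-like protein that goblet cells secrete into the lumen, read -1.52 and -6.97 on the healthy arrays, 2.65 and 2.54 in fish oil, 2.58 and 2.49 in n-6 and 2.98 and -1.20 in ALA colitis. The healthy arrays were far apart, and the difference of 6.84 ± 1.86 carries that spread. Bcas1 read 0.64 and 2.22 in healthy and 5.33 and 3.69 in fish oil colitis; its second probe differed by 1.28 ± 0.62. The trefoil peptide Tff3 was 1.65 ± 0.50 and the mucus lectin Zg16 1.48 ± 0.56 from healthy. Muc2, the gel-forming mucin that defines the cell type, was 0.30 ± 0.42. For Retnlb, Bcas1, Tff3 and Zg16, n-6 colitis was 6.78, 2.58, 2.52 and 0.85 from the same healthy arrays. Without fish oil replicate 2 the count was 2.

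Among 15 enteroendocrine genes 1 was higher, the prohormone convertase Pcsk1, at -4.08 and 0.53 in healthy, 4.73 and 2.56 in fish oil, 3.23 and 4.04 in n-6 and 3.30 and 3.06 in ALA colitis; here too the healthy arrays were apart. Without fish oil replicate 1 the count was 2. In the antimicrobial and epithelial oxidase list 4 of 22 genes were higher and 1 lower. Duoxa2, the maturation factor of a dual oxidase of the epithelium, read -1.23 and -1.27 in healthy and 0.89 and -0.03 in fish oil colitis, and the intelectin Itln1 -1.87 and 0.17 in healthy against 1.75 and 1.56 in fish oil colitis. The bacterial sensor Nod2 was 1.07 ± 0.39 and lysozyme Lyz2 0.85 ± 0.29 from healthy, while the colonic oxidase Nox1 was -2.71 ± 0.96. The list's median relative to healthy was 0.94 on the first fish oil array and 0.20 on the second. Without healthy replicate 1, healthy replicate 2, fish oil replicate 1 and fish oil replicate 2 in turn, 2, 2, 1 and 5 genes were higher. Among squamous genes the related Slurp1 read -5.77 and -5.42 in healthy, -2.61 and -3.96 in fish oil and -4.85 and -2.33 in n-6 colitis, and it and Slurp2, which entered the test only through the fish oil arrays, were the only 2 of 20 at an unadjusted p under 0.05 (1 without either healthy array or fish oil replicate 1). Krt5, Krt13 and Krt1, keratins that define squamous epithelium, did not pass the filter on dim probes, and 11 of the 31 squamous genes on the array did not.

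Macrophage and monocyte genes lay above healthy. Of 19 tested (of 21 on the array), 9 were higher at an unadjusted p under 0.05 and 0 lower, 12 were above without overlap and 0 below, and the median was 0.85. Mrc1, the mannose receptor, read -6.98 and -5.12 in healthy and -3.46 and -3.92 in fish oil colitis. The first of these healthy values was not well above background, and the difference of 2.36 was 0.39 at its lowest among the alternatives. Cd163, the haemoglobin scavenger receptor, read -3.21 and -2.12 in healthy against -0.20 and -0.92 in fish oil colitis. The sialoadhesin Siglec1 (1.36 ± 0.44), the lectin Clec10a (1.34 ± 0.49), the macrophage surface receptor Adgre1 (1.25 ± 0.45) and the complement component C1qc (0.99 ± 0.34) followed, with C1qb (0.90), the Fc receptor Fcgr1a (0.85) and lysozyme Lyz2. Clec4a1, a lectin of myeloid cells outside the list, was 1.34 ± 0.30. In n-6 colitis Mrc1, Cd163, Siglec1, Clec10a, Adgre1 and C1qc were 2.09, 2.80, 1.48, 1.54, 0.19 and 0.99 from the same healthy arrays, and the median of the list was 0.95. Fish oil minus n-6 had an interval of -0.81 to 0.80 for C1qc and -1.16 to 0.92 for Siglec1. Cd68, the lysosomal marker, was 0.35 ± 0.32 from healthy in fish oil and 1.86 above it in n-6 colitis, a difference of -1.51 (limma adjusted p = 0.39). Without healthy replicate 1, healthy replicate 2, fish oil replicate 1 and fish oil replicate 2 in turn, the 9 became 1, 4, 0 and 8.

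Cytokines and chemokines split in 2 directions. Of 31 genes tested (of 36 on the array), 3 were higher and 4 lower than healthy at an unadjusted p under 0.05, and the median was 0.12, beside 1.11 in n-6 and 0.78 in ALA colitis. The neutrophil attractant Cxcl2 read -3.98 and -3.99 in healthy, -0.93 and -2.29 in fish oil, 2.61 and 0.75 in n-6 and 2.15 and 0.02 in ALA colitis. Fish oil arrays lay between healthy and the other colitis arrays, 2.38 ± 0.88 above healthy and -3.29 from n-6 (limma adjusted p = 0.39). Cxcl3 was 2.77 ± 0.99 above healthy, with the fish oil arrays apart at 0.83 and -2.53, and Il1rn, the interleukin-1 receptor antagonist, 1.30 ± 0.42; n-6 colitis was 5.29 and 3.08 above healthy. Interleukin-1 beta itself (Il1b) read -0.46 and -1.01 in healthy, -0.50 and -0.98 in fish oil and 1.98 and 0.41 in n-6 colitis. In the order of left-out arrays given above, 1, 0, 0 and 4 genes were higher and 3, 3, 5 and 3 lower, and with the deposited value table the median was -0.02.

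The 4 lower genes were interferon gamma and 3 chemokines that it induces. Ifng read -4.61 and -4.46 in healthy and was not well above background in fish oil (-6.13 and -6.47) or n-6 colitis (-6.62 and -6.09), at least 2.55-fold lower in fish oil than in healthy. Cxcl9 read -1.35 and -0.66 in healthy against -2.91 and -2.81 in fish oil colitis, Cxcl10 0.22 and 0.004 against -2.05 and -1.93, and Cxcl11 -1.92 and -1.96 against -3.10 and -3.97. All 4 genes were lower on both fish oil arrays than on both healthy arrays. Ifng entered the test only through the healthy arrays, so its place among the 4 is not free of that choice. In n-6 colitis Ifng was at least 3.53-fold lower than healthy, and Cxcl9, Cxcl10 and Cxcl11 were -1.64, -1.47 and -2.13 from it. Fish oil minus n-6 had an interval of -1.25 to 0.82 for Cxcl9; with Ifng below background in both, its levels under the 2 diets could not be compared. The deubiquitinase-like Usp18, which removes the ubiquitin-like modifier ISG15, was -2.17 ± 0.51 from healthy (its second probe -1.64 ± 0.49) and was the only one of 33 interferon response genes at an unadjusted p under 0.05 (4 without healthy replicate 1 and 2 without fish oil replicate 1). The lymphocyte chemokine Xcl1 was -1.62 ± 0.44. By contrast the interferon-induced membrane proteins Ifitm3 and Ifitm7 were higher by 1.75 ± 0.39 and 1.80 ± 0.39, with n-6 colitis at 3.43 and 3.30.

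Other immune lists held fewer genes at an unadjusted p under 0.05. The neutrophil list had 2 of 17 genes higher, the calprotectin subunit S100a9 (-2.81 and -3.98 in healthy, -1.09 and -1.73 in fish oil and -0.05 and -1.67 in n-6 colitis) and the receptor Cxcr1 (well above background on 1 fish oil array and on neither healthy array), and its median was 1.17 on the first fish oil array and 0.12 on the second. The count was 0 without healthy replicate 2 and 1 without fish oil replicate 1, and 10 of the 27 neutrophil genes on the array, Mpo and Elane among them, did not pass the filter on dim probes. Of 24 complement and coagulation genes 4 were higher: the regulator Cd55 (1.16 ± 0.30), Cfb (1.75 ± 0.67), the C5a receptor C5ar1 (0.82 ± 0.34) and F13a1 (1.59 ± 0.63). Without healthy replicate 1, healthy replicate 2, fish oil replicate 1 and fish oil replicate 2 in turn that count was 1, 1, 1 and 4. The lists of T cells and cytotoxic lymphocytes (23 tested), B cells and plasma cells (18), MHC class II (11) and NF-kB signalling (20) had 0 genes at an unadjusted p under 0.05, with medians of -0.33, -0.26, -0.20 and 0.22. Without overlap, 12, 4, 0 and 3 of their genes lay below healthy, in that order, and 4, 1, 1 and 4 above. With the spread of healthy and fish oil arrays alone, 6 T cell genes were lower and 2 higher at that limit, and the other lists still had 0. The medians of the B cell and MHC class II lists did not hold their sign: that of B cells was 0.34 on the first fish oil array and -1.14 on the second, and that of MHC class II became 0.47, with 10 of 11 genes higher, without healthy replicate 2. The B cell list stood at 1.67 in n-6 and 2.39 in ALA colitis, with array medians of 2.87 and 0.14 in n-6 and 1.81 and 3.501 in ALA colitis; Cd79b, a chain of the B cell receptor, read -3.77 and -4.42 in healthy, 0.76 and -4.10 in n-6 and -1.38 and 1.22 in ALA colitis and was not well above background in fish oil colitis (-5.06 and -7.60). The interleukin-33 receptor Il1rl1 was -2.55 ± 0.76 from healthy, with signal well above background on 1 of the 2 fish oil arrays, and -2.45 from n-6 colitis.

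Matrix genes had a median near 0 against healthy in fish oil colitis. Of 37 matrix genes 1 was higher and 0 lower, with a median of 0.04 beside 1.30 in n-6 and 0.37 in ALA colitis. The fish oil median was -0.01 with the deposited value table. The one was Timp1, the inhibitor of matrix metalloproteases, at 1.74 and 1.38 in healthy, 3.63 and 2.62 in fish oil, 5.42 and 4.95 in n-6 and 3.54 and 3.005 in ALA colitis; fish oil arrays lay above healthy and below n-6 (-2.05, limma adjusted p = 0.39). Without fish oil replicate 1 no matrix gene was higher. Of the 37 genes 15 were lower and 0 higher in fish oil than in n-6 colitis at an unadjusted p under 0.05, where all genes give 4.44% lower. Mmp10, a stromelysin, read -2.04 and -1.93 in healthy, -3.70 and -5.31 in fish oil and 1.24 and -2.27 in n-6 colitis. Grem1, an antagonist of bone morphogenetic proteins and the only one of 29 EGF and TGF-beta family genes at an unadjusted p under 0.05, was 1.81 ± 0.53 from healthy and 3.69 in n-6 colitis. The hedgehog target Gli1, the only one of 17 fibroblast genes at that limit, was not well above background in fish oil colitis (at least 2.79-fold lower than healthy), and 3 of 13 endothelial genes were lower: Nos3 (-1.43 ± 0.47), Emcn (-1.15 ± 0.44) and Plvap (-1.07 ± 0.40). In the order of left-out arrays given above, the lower endothelial genes numbered 1, 0, 0 and 2, the lower fibroblast genes 1, 1, 2 and 1, and the higher EGF and TGF-beta family genes 2, 0, 0 and 1.

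Enteric neuron and glia genes lay above healthy in number, with 13 of 22 tested (of 23 on the array) above and 0 below without overlap and a median of 0.51. At an unadjusted p under 0.05 were 4: the filament protein Prph (1.24 ± 0.51), the tachykinin precursor Tac1 (1.24 ± 0.48), the neuronal tubulin Tubb3 (1.19 ± 0.41) and Stmn2 (0.97 ± 0.40). The 2 healthy arrays lay 0.32 and -0.32 from their mean by the list's median, and the fish oil arrays 0.81 and 0.48; smooth muscle genes, with a median of 0.33, had 0 of 17 at an unadjusted p under 0.05. Without healthy replicate 2 or fish oil replicate 1 the count of 4 became 0. Whether the share of muscle wall in the samples had a part was not tested. In the AP-1 list, the AP-1 subunit Fosl1 was 1.06 ± 0.35 above healthy, against 3.59 in n-6 colitis (limma adjusted p = 0.0449 for the latter), and the phosphatase Dusp2 (not well above background in fish oil colitis, at least 1.96-fold lower) and Myc made up 2 lower genes of 25. In the order of left-out arrays given above, 1, 1, 0 and 4 were higher and 0, 2, 1 and 0 lower.

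Haemoglobin genes made up 4 of the 7 genes that passed between fish oil and n-6 colitis. Those groups differ in the oil fed, the rats and the positions of the arrays. Of 8 red cell genes tested, 0 had an unadjusted p under 0.05 against healthy. Hbb, a haemoglobin beta chain, read 0.44 and 0.20 in healthy, 0.32 and 0.76 in fish oil, 5.06 and 4.71 in n-6 and 1.17 and 1.34 in ALA colitis. Hba-a1, an alpha chain, read 1.33 and 1.16 in healthy, 1.99 and 1.81 in fish oil, 6.34 and 5.79 in n-6 and 2.29 and 2.26 in ALA colitis. The n-6 arrays lay above all others for both genes. Fish oil arrays were 0.22 ± 0.31 and 0.66 ± 0.31 from healthy, and they lay -4.34 and -4.17 from n-6 colitis (limma adjusted p = 0.0139 for each). Globin genes are near-identical copies that can share signal on an array, so the 4 globin calls are not independent of each other. In that contrast 7 of 18165 genes passed in all (0.0385%). Slurp2, Lpal2 and a transcript without a symbol were the 3 higher ones (0.0165%), and Hbb, Hba-a1, Hbb-b1 and Hbe2 the 4 lower ones (0.022%). With a value table deposited by the authors in place of the scanner signal, Hbb differed by -0.70 and Hba-a1 by -3.05. Hbb-b1 differed there by -4.885 and Hbe2 by -5.062 (limma adjusted p = 0.0241 and 0.0269). That table was matched by gene name, so its value may come from another probe of a gene. After normexp correction the fitted difference was 1.26 for Slurp2 and 1.38 for Lpal2 (limma adjusted p = 0.221 and 0.152). On the n-6 arrays the signal of those 3 higher genes was not well above background. Without n-6 replicate 2 there were 10 calls, 5 of them among the 7, and leaving out any other of the 8 arrays left 0.

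**Figure D4:**
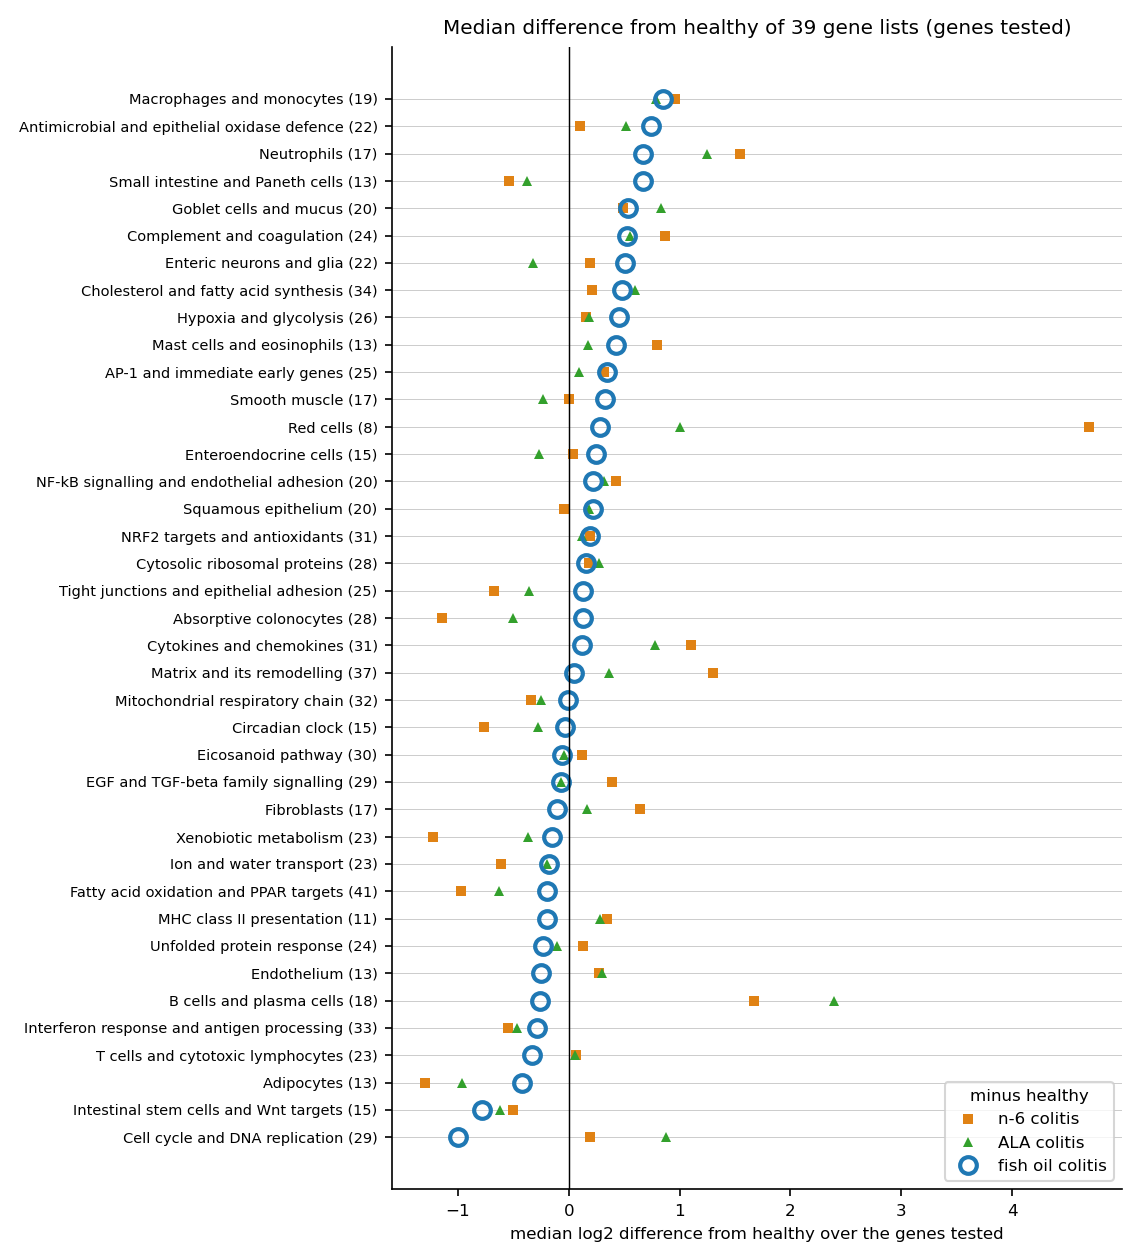
Median log2 difference from the same 2 healthy arrays (x axis) over the tested genes of 39 lists (y axis, number of genes in brackets), for fish oil (open circles), n-6 (squares) and ALA colitis (triangles). Fish oil medians run from -0.998 (cell cycle) to 0.85 (macrophages), and those of matrix, B cell and red cell genes lie at 0.04, -0.26 and 0.28 where n-6 colitis has 1.30, 1.67 and 4.69.

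Other lists had few or no genes at an unadjusted p under 0.05. The unfolded protein response (24 genes), circadian clock (15), mast cell and eosinophil (13), smooth muscle (17) and cytosolic ribosomal protein (28) lists had 0 such genes. Their medians were -0.23, -0.03, 0.43, 0.33 and 0.16. Without overlap, 3, 1, 4, 5 and 14 of their genes lay above healthy, in that order, and 6, 2, 0, 0 and 0 below. The ribosomal median turned to -0.19 after quantile normalization, with 25 of the 28 genes below healthy. Adipocyte genes (13, median -0.42) held 1 lower gene, Pck1, and small intestinal genes (13, median 0.67) 1 higher, Lyz2, which macrophages also express. Neither count was steady as each of the 4 arrays was left out. The medians then ran from -1.132 to 0.292 for adipocyte and from 0.007 to 0.561 for small intestinal genes. The small intestinal median was 0.14 on the first fish oil array and 0.01 on the second, and 0.30 over the 11 genes well above background on all 8 arrays; the adipocyte median became 0.29 without healthy replicate 2. Leaving out 1 of the 4 arrays turned the sign of the median in 13 of the 39 lists: enteroendocrine, cytokine and chemokine, B cell, MHC class II, matrix, fibroblast, smooth muscle, squamous, adipocyte, eicosanoid, respiratory chain, AP-1 and circadian clock. Leaving out healthy replicate 2 or fish oil replicate 1 turned 6 lists each, healthy replicate 1 turned 3 and fish oil replicate 2 turned 1.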

How the data were processed

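Labelled RNA of the colon was hybridised to Agilent single-colour rat arrays, 2 per group, on 1 slide. Per the file headers and the submitters' processing notes, the authors extracted spot intensities with Feature Extraction 11.5.1.1, which subtracts background; the deposited intensity used here is its processed signal. The deposited value table holds log2 values that the authors had scaled (column medians of -2.892 to -3.182, 75th percentiles near 0, correlation of 0.982 to 0.989 with the log2 signal of the same array); the scaling method is not stated in the labels or headers, and the table served as an alternative. It holds 26205 values per array, and 18159 tested genes could be matched to it. Groups were taken from the sample titles; a description line on healthy tissue is shared by colitis samples.

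From the intensities, log2 was taken and the 75th percentile of each array subtracted. Control spots and outlier spots were left out, and no probe was saturated. A probe entered when both arrays of any 1 group had it well above background (20793 of 30367 probes). Genes were named through RefSeq (GRCr8) from accession (18355 probes), another accession (445), symbol (2535) or synonym (410), and 8622 probes have no name here. A gene is its probe with the highest mean signal; 2364 genes had more than 1. limma 3.58.1 in R 4.3.3 fitted all 8 arrays, which share 4 residual and 2.98 prior degrees of freedom, with Benjamini-Hochberg adjustment over 18165 genes. The fit was tested on 20 simulated sets with 200 changed genes each and noise drawn independently for each gene. At an adjusted limma p under 0.05 it recovered 0.4% of log2 changes of 1, 31.2% of 2 and 75.2% of 4. There were 4.9 false calls per set. The 0 calls against healthy therefore do not show that no gene changed. The number of arrays limits the precision.

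Named genes are, against healthy: those with the smallest unadjusted p that have a symbol, no overlap, a difference of at least 1 and signal on all 4 arrays (12 a direction, since no gene passed adjustment); up to 6 a direction seen in 1 group only, by their bound; up to 6 members of each list described with an unadjusted p under 0.05 and no overlap; and up to 5 a direction that differ by at least 2 from healthy and from n-6 colitis at an unadjusted p under 0.05. Some that this names (Cbln1 and Pde6h, and members of lists with no call) are not described or not reported here. Outside the rule, and named after their values were seen, are C1qb, Car2, Ccnb2, Ccnd1, Cd68, Cdk1, Fcgr1a, Fdps, Hbe2, Hsd11b2, Il1b, Il1rn, Lgals4, Lss, Mki67, Muc2, Scd2, Slc16a1, Slc9a3 and Sqle. The members, the 39 gene lists and the rules were chosen with earlier results of these data known. Alternatives were median centring, quantile normalization, normexp background (offset 50), no filter, a filter on all 8 arrays, the mean of probes, the deposited values, a fit of the compared groups alone, an intensity trend with robust prior, a replicate block and leaving out each array.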

Additional observations from a re-analysis of the deposited data

Results flagged for a closer look

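Fish oil and n-6 colitis, each set against the same healthy arrays, differed by the limma test of the difference itself for 7 of 18165 genes. Higher in fish oil than in n-6 colitis were Lpal2, Slurp2 and the transcript ENSRNOT00000074975, for which no symbol was found. None of the 3 was well above background in n-6 colitis, so only bounds hold: at least 20.1-fold for Lpal2 (limma adjusted p = 0.0139), 19.24-fold for Slurp2 (limma adjusted p = 0.0208) and 10.84-fold for the transcript (limma adjusted p = 0.0317). Slurp2 and the transcript were not well above background in healthy or ALA colitis either, at least 19.79-fold and 12.69-fold below fish oil colitis in healthy, and they entered the test only through the fish oil arrays. With no filter on dim probes the adjusted limma p was 0.0561, 0.0594 and 0.0877 for Lpal2, Slurp2 and the transcript. After normexp correction their log2 differences from n-6 colitis were 1.376, 1.256 and 0.873, in that order. Lpal2 was 1.61 above healthy in fish oil colitis and at least 6.61-fold below it in n-6 colitis.

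The haemoglobin genes were lower in fish oil than in n-6 colitis. The difference was -4.34 ± 0.313 for Hbb, -4.17 ± 0.309 for Hba-a1 and -4.85 ± 0.361 for Hbb-b1 (limma adjusted p = 0.0139 for each), and -4.94 ± 0.398 for the epsilon chain Hbe2 (limma adjusted p = 0.0188). Fish oil colitis was 0.22, 0.66, 0.37 and 0.29 from healthy for Hbb, Hba-a1, Hbb-b1 and Hbe2, and n-6 colitis was 4.56, 4.82, 5.22 and 5.23.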

How the results depend on the processing

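Between fish oil colitis and healthy colon, limma called 0 genes under every alternative except quantile normalization, which called 1. The count at an unadjusted p under 0.05 (712) became 461 with the filter on all 8 arrays and 1177 with the 2 groups fitted alone, and ran from 359 to 1191 as each array was left out. Between fish oil and n-6 colitis the 7 calls became 4 with normexp, 0 without a filter, 4 with the filter on all 8 arrays and 0 with the 2 groups fitted alone, and 0 to 10 as each array was left out. The cause of these moves was not tested. Replicate numbers were not shown to pair the arrays: the correlation between groups of the deviations of replicate 1 ran from -0.168 to 0.47, and was 0.154 for healthy and fish oil. With the replicate block, 0 genes passed against healthy (897 at an unadjusted p under 0.05) and 5 against n-6 colitis; a crossed pairing, chosen after seeing the data, gave 6. Of 130 named genes, 123 kept their sign against healthy under every alternative. The exceptions were Car2 (-0.19 with quantile normalization and -0.22 with normexp, and -0.24 to 0.58 as each array was left out), Hba-a1 (-0.53 with the deposited table), Il1b (0.001 with median centring, and -0.28 to 0.27 as each array was left out), Muc2 (-0.003 with normexp, -0.16 with the mean of probes, -0.34 with the deposited table, and -0.14 to 0.75 as each array was left out), and, as each array was left out, Hsd11b2 (-0.48 to 0.39), Slc16a1 (-0.95 to 0.52) and Slc9a3 (-0.64 to 0.42). With 2 arrays a group of pooled RNA the median standard error was 0.42. Some genes near background on the dim first fish oil array carry only bounds, but others are given as measured values. Axin2 and Cldn8 are among the latter, although both read below the lowest signal well above background on that array (-5.3). Il1rl1 is given as a difference too, with signal well above background on only 1 fish oil array. The sizes of such differences are uncertain. Genes given as bounds moved too. Their smallest differences from healthy among the alternatives included -0.282 (Ifng), -0.286 (Rnf43), -0.248 (Ppara), -0.353 (Gli1), -0.202 (Dusp2) and -0.209 (Alox12).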
